A study of Mus musculus with 8 samples.

Results

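Glucose sensing in the MIN6 line, an insulin-secreting β-cell line from a mouse pancreatic tumour, was followed through 7 genes chosen by their function. They were Slc2a1, Slc2a2, G6pc2, Pcx, Gpd2, Glud1 and Abcc8, found by symbol among the 55536 genes of the count table, and each matched 1 row. Polyadenylated RNA was sequenced from 8 libraries of wild-type MIN6 cells 48 h after transfection with Lipofectamine 3000, which carries plasmid DNA into cells. The cells of 4 control libraries carried the empty vector pcDNA 3. Those of the other 4, called Klf4 libraries here, carried pGloMyc-Klf4, made to overexpress Klf4, a zinc-finger transcription factor. The plasmids differ in name as well as in insert, so the backbone and Klf4 cannot be told apart. Libraries 1 and 2 of each group belonged to batch 1 and libraries 3 and 4 to batch 2, and the cells are a bulk population in which the labels report no separation of transfected from untransfected cells. The extraction text speaks of islets, while every sample is named as MIN6 and is treated here as that line. The series' text calls the replicates biological but does not say that they came from separate cultures, so the p-values measure the spread between these libraries.

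A β-cell senses glucose by metabolising it. Glucose enters through facilitative transporters, is phosphorylated and is broken down to pyruvate, which both fuels the tricarboxylic acid (TCA) cycle and refills it through pyruvate carboxylase, a refilling known as anaplerosis. NADH from glycolysis is passed to mitochondria by shuttles, and the rise of ATP closes ATP-sensitive potassium (KATP) channels, which depolarises the cell and starts insulin secretion. Slc2a2 encodes the glucose transporter GLUT2 that mouse β-cells use, and Slc2a1 encodes the widely expressed GLUT1. G6pc2 encodes the islet glucose-6-phosphatase that opposes glucose phosphorylation, Pcx pyruvate carboxylase, and Gpd2 the mitochondrial glycerol-3-phosphate dehydrogenase of the glycerol phosphate shuttle. Glud1 encodes glutamate dehydrogenase, which feeds glutamate carbon into the TCA cycle, and Abcc8 encodes SUR1, the sulfonylurea-binding subunit of the KATP channel.

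The sequences just upstream of the 4 genes that passed the test of the plasmid are shown, since Klf4 is a DNA-binding protein. They are RefSeq windows on GRCm38.p6, plus strand, 5′ to 3′, ending 1 base before the annotated start. Of the 7 genes, 6 had a window in the table, and Abcc8 had none. Capitals mark matches on either strand to GGGNGTGG, a CACCC-type element that Klf4 is known to bind, to the GC box GGGCGG, or to the E-box CACGTG. The Glud1 window lies at chr14:34310477-34310726, the G6pc2 window at chr2:69210823-69211072, the Pcx window at chr19:4510222-4510471 and the Gpd2 window at chr2:57237428-57237634.
Glud1: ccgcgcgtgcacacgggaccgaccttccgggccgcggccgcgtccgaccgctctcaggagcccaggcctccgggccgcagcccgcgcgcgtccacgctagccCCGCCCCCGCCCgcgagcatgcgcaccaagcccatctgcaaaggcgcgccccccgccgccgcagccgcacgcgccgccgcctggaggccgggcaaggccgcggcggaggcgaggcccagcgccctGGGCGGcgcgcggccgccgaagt
G6pc2: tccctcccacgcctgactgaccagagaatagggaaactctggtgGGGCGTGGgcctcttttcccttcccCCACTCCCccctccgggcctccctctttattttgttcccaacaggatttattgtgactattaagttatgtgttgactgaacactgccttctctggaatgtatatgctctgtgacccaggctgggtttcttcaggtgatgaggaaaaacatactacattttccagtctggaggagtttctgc
Pcx: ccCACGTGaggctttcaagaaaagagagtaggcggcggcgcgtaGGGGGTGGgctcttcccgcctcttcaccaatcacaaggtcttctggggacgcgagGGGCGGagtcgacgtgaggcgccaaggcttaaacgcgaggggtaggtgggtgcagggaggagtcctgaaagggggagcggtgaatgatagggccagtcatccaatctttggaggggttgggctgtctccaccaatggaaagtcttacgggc
Gpd2: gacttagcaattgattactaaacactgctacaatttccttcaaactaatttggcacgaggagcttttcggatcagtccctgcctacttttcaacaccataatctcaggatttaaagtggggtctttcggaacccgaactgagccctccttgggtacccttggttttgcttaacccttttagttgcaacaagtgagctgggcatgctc
GGGNGTGG was present 2 times upstream of G6pc2, with its first bases 206 and 181 bases before the start, and 1 time upstream of Pcx, also 206 bases before the start. It was not among the letters of the windows of Glud1, Gpd2, Slc2a1 or Slc2a2. Across 32851 windows of 250 bases, 15.9% held it. GGGCGG occurred 3 times upstream of Glud1, 2 of them side by side on the opposite strand, and 1 time each upstream of Pcx and Slc2a1, against 32.7% of all windows. CACGTG occurred 1 time, upstream of Pcx, against 6.02% of all windows. The Glud1 window was 82% G and C, the Gpd2 window 44.9%. The matches describe the letters of the windows; binding was not measured.

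Total counts were 45417853 to 52731176 per library. Klf4 itself, given first as a check of the labels, had a level scaled to library size (CPM) of 36.1 to 42.8 in control libraries and of 4532 to 5853 in Klf4 libraries (log2 fold change 6.97, SE 0.07, adjusted p = 1.21e-25 by edgeR's quasi-likelihood test), with plasmid and endogenous transcripts counted together. Of all 18266 tested genes, 36.6% passed an adjusted p of 0.05 for the plasmid, 21.1% higher and 15.5% lower (57.7% of calls higher, or 72.7% with scaling factors from abundant genes). Among the 6836 genes with an average CPM no lower than that of Slc2a1, the lowest of the 7 on that scale, 45.7% changed, 1183 higher and 1944 lower. All 10 β-cell markers listed were tested, 4 fell (Pdx1, Mafa, Iapp and Slc30a8) and 0 rose, and their summed CPM ranged over 30983 to 39019 in controls and 29019 to 39363 with Klf4. The δ-cell and PP-cell markers Sst, Hhex and Ppy stayed at or below 0.276 CPM in every library. The 5 α-cell markers summed to 588.9 to 710.4 CPM in controls and 602.9 to 704.9 CPM with Klf4, most of it Ttr and Gcg, and 2 of 4 tested rose, among them Irx2, at most 1.21 CPM in any library. Summed levels in control and Klf4 libraries were 53.9 to 83.8 and 69.3 to 106.3 CPM for 3 ductal markers, 2 of which rose, 2.61 to 3.82 and 5 to 6.33 CPM for 4 mesenchymal markers, 1 of which rose, and 3.82 to 4.15 and 4.49 to 4.95 CPM for 3 endothelial markers, 1 of which rose. For 4 acinar and 3 immune markers, none of which passed, they were 1.36 to 3.92 and 1.63 to 3.07 CPM, and 5.59 to 6.15 and 5.29 to 6.85 CPM. Kdr, Cdh5 and Adgre1 had 0 counts in every control library. The part of these markers in the results below was not tested. In these bulk samples fewer cells of a type and less RNA per cell cannot be told apart. Mitochondrially encoded genes took 3.78% to 4.33% of counts.

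All 7 genes passed the filter on low counts, and their levels per exonic length spanned a wide range. G6pc2 was the most abundant at 384.2 ± 22.5 RPKM (reads per kilobase of exon, scaled to library size; SD, n = 8), rank 61 of the 18266 genes. Abcc8 followed at 60.5 ± 4.24 RPKM. Pcx at 42.2 ± 1.61, Gpd2 at 41.3 ± 2.84 and Glud1 at 40.5 ± 4.85 RPKM overlapped, so their order is not resolved. Slc2a2 stood at 20.3 ± 5.79 RPKM and Slc2a1 at 8.68 ± 1.19 RPKM. The ranges over the 8 libraries of G6pc2, of Abcc8, of the overlapping trio, of Slc2a2 (14.4 to 26.4 RPKM) and of Slc2a1 (6.93 to 10.1 RPKM) did not overlap one another.

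**Figure D1:**
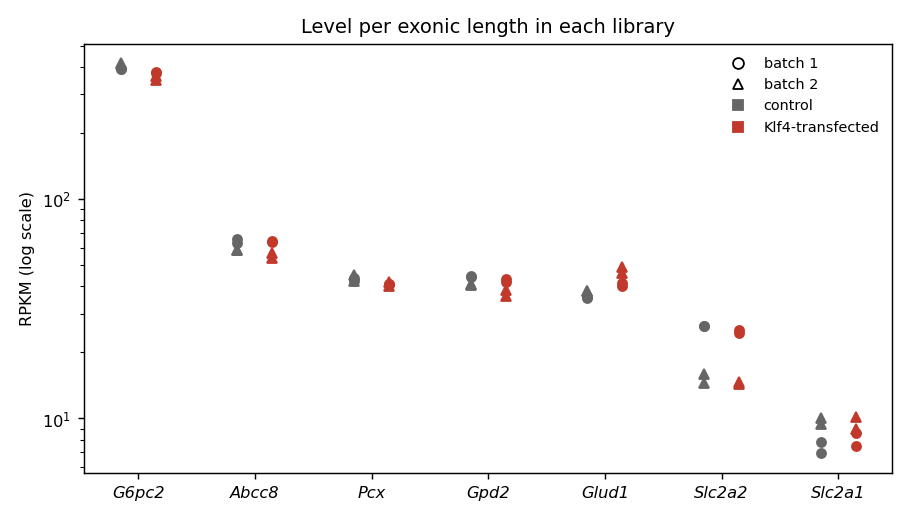
Level per exonic length (RPKM, log axis) of each gene in each of 8 libraries, with circles for batch 1, triangles for batch 2, grey for control and red for Klf4-transfected cells. G6pc2 lies near 384.2 RPKM, far above the other 6, and Slc2a1 is the lowest at 8.68 RPKM.

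The Klf4 plasmid moved these genes little. Of the 7, 4 passed an adjusted p of 0.05, with Glud1 higher and G6pc2, Pcx and Gpd2 lower, a count to be read against the 36.6% of all genes. In percent, by the fold change of the model adjusted for batch, Glud1 rose by 19.7%. G6pc2 fell by 8.59%, Gpd2 fell by 6.12% and Pcx fell by 5.42%. The median log2 fold change of the 7 was -0.07, against -0.01 over all tested genes. Among the 6836 genes with an average CPM no lower than that of Slc2a1, the median was -0.035 and 45.7% passed. The 7 were chosen with earlier results of these data known, so the count supports nothing by itself.

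**Figure D2:**
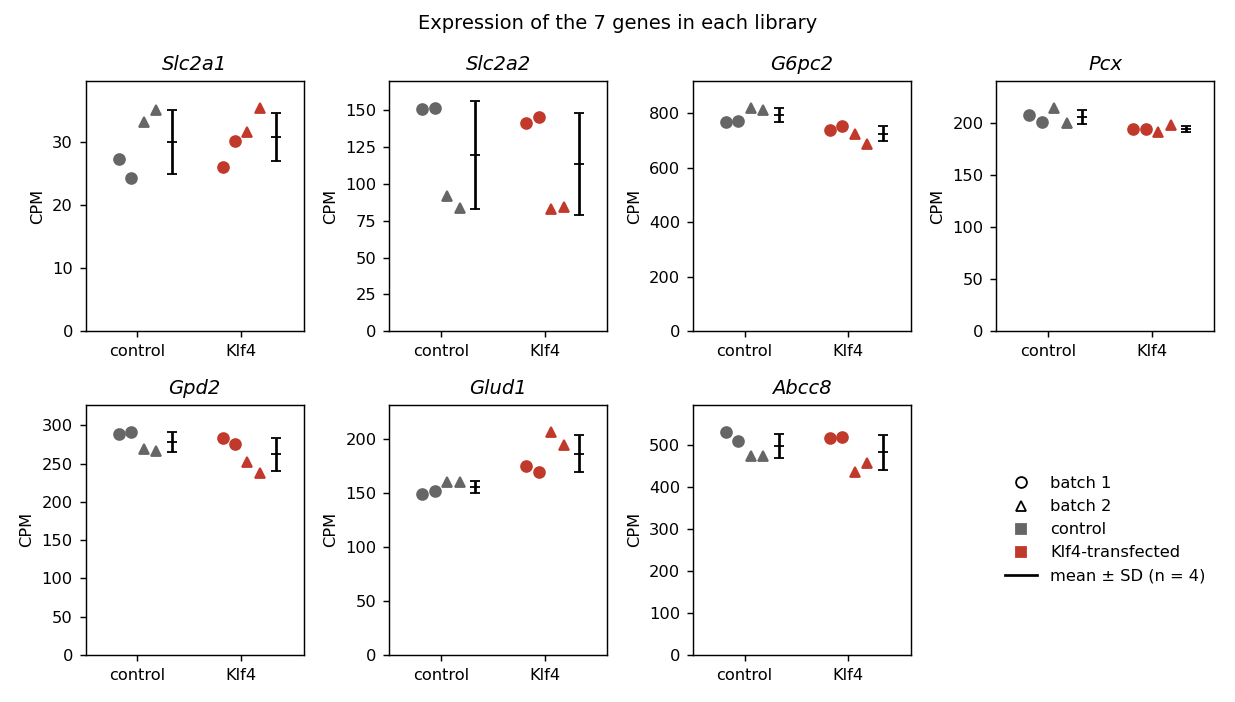
CPM of each gene in each library (axes from 0), with circles for batch 1, triangles for batch 2 and black bars for the mean ± SD of 4 libraries. The groups separate for Glud1, G6pc2 and Pcx, and the batches separate for Slc2a1, Slc2a2, Gpd2 and Abcc8.

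Glud1 (ENSMUSG00000021794, GRCm38 chromosome 14, 34310727 to 34345265, plus strand) rose. Its level was 149.1, 151.3, 160 and 159.9 CPM in control libraries 1 to 4. In Klf4 libraries 1 to 4 it was 174.6, 168.9, 206.5 and 194.1 CPM. The lowest Klf4 library exceeded the highest control, and the batch 2 libraries were the highest of their group. The means were 155.1 ± 5.71 and 186 ± 17.4 CPM (SD, n = 4), a 1.20-fold difference with a log2 fold change of 0.26 (SE 0.032, adjusted p = 6.17e-07 in edgeR). Within batches the log2 fold change was 0.19 and 0.32, a difference that did not pass the interaction test (adjusted p = 0.368, unadjusted 0.0253 in edgeR; 0.766% of all genes passed it, 0.679% with a higher and 0.0876% with a lower value in batch 2). Sequences at least 95% identical to part of a Glud1 transcript occur in Glud-ps and Gm43444, which held 10 to 23 and 0 to 6 counts per library against 7019 to 10858 for Glud1.

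G6pc2 (ENSMUSG00000005232, chromosome 2, 69211073 to 69227841, plus strand) fell. Control libraries 1 to 4 held 768.7, 770.7, 818.8 and 811.5 CPM. Klf4 libraries 1 to 4 held 738.2, 751.7, 721.4 and 686.1 CPM. The groups did not overlap, and they lay further apart in batch 2, where control libraries were the highest and Klf4 libraries the lowest. The log2 fold change was -0.13 (SE 0.030, adjusted p = 0.00151 in edgeR), or 0.914 times the control level, with -0.047 in batch 1 and -0.21 in batch 2. This difference between batches had an unadjusted p of 0.00128 and an adjusted p of 0.103 in the edgeR interaction test. An offset for GC content and length gave -0.083 (adjusted p = 0.0198 in edgeR).

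Pcx (ENSMUSG00000024892, chromosome 19, 4510472 to 4621752, plus strand) fell by the smallest amount that passed. Control libraries 1 to 4 stood at 207.7, 201, 214.9 and 200.2 CPM, and Klf4 libraries 1 to 4 at 194.9, 194.8, 191.4 and 198.1 CPM. The lowest control library stood just above the highest Klf4 library. The log2 fold change was -0.080 (SE 0.029, adjusted p = 0.0318 in edgeR), with -0.069 and -0.092 within batches 1 and 2. The call was lost when replicate number replaced batch as the block (adjusted p = 0.0544), without the batch term (0.127), without control replicate 3 (0.0907), with a filter at 1 CPM (0.0561) and with scaling factors from abundant genes (0.242). The offset for GC content and length gave -0.18 (adjusted p = 6.08e-06 in edgeR). The 2-sided exact permutation test over the 70 relabellings gave p = 0.0286 for Glud1, G6pc2 and Pcx, the smallest the design allows, and 0.0667 after adjustment over the 7 genes. The groups did not overlap for these 3 of the 7, and for 26.1% of all tested genes.

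Gpd2 (ENSMUSG00000026827, chromosome 2, 57237635 to 57370719, plus strand) fell once batch was accounted for. It stood at 288.2, 292, 269 and 266.2 CPM in control libraries 1 to 4. In Klf4 libraries 1 to 4 it stood at 283.6, 275.3, 252.4 and 237.2 CPM. The groups overlapped over all 8 libraries and did not overlap within either batch. Its log2 fold change was -0.091 (SE 0.028, adjusted p = 0.0134 in edgeR), with -0.054 and -0.13 within batches 1 and 2. The call was lost without Klf4 replicate 4 (adjusted p = 0.0532), without the batch term (0.314) and with factors from abundant genes (-0.057, adjusted p = 0.113). The non-coding gene A930012O16Rik, on the opposite strand, overlaps 7.44% of the exonic length of Gpd2, and its 114 to 165 counts per library compare with 12464 to 14657 for Gpd2.

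Slc2a2, Slc2a1 and Abcc8 did not pass the test of the plasmid. Slc2a2 (ENSMUSG00000027690, chromosome 3, 28697903 to 28731359, plus strand) stood at 151.1, 151.7, 91.9 and 83.8 CPM in control libraries 1 to 4 and at 141.7, 145.6, 82.7 and 84.5 CPM in Klf4 libraries 1 to 4. Its groups overlapped in batch 2 and not in batch 1. Its log2 fold change was -0.074 (SE 0.032, adjusted p = 0.0754 in edgeR), and -0.076 and -0.071 within batches. It passed without control replicate 4 (-0.11, adjusted p = 0.0151) and without the 10 most abundant genes (adjusted p = 0.0417), and stood at -0.027 with the offset for GC content and length.

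Slc2a1 (ENSMUSG00000028645, chromosome 4, 119108711 to 119137983, plus strand) stood at 27.3, 24.3, 33.2 and 35.2 CPM in control libraries 1 to 4 and at 26.1, 30.2, 31.5 and 35.5 CPM in Klf4 libraries 1 to 4. The groups overlapped in both batches. The log2 fold change was 0.044 (SE 0.056, adjusted p = 0.592 in edgeR), with 0.12 in batch 1 and -0.030 in batch 2. It turned negative with that offset (-0.0027), without control replicate 2 (-0.018) and without Klf4 replicate 2 (-0.018). Abcc8 (ENSMUSG00000040136, chromosome 7, 46104523 to 46180033, minus strand) stood at 531.9, 510.1, 473.1 and 474.1 CPM in control libraries 1 to 4 and at 515.7, 520, 436.2 and 457.2 CPM in Klf4 libraries 1 to 4. Its groups overlapped in batch 1 and not in batch 2. The log2 fold change was -0.047 (SE 0.027, adjusted p = 0.192 in edgeR), with -0.0086 and -0.084 within batches. It passed with the offset for GC content and length (-0.13, adjusted p = 7.65e-05) and without control replicate 2 (-0.082, adjusted p = 0.0285).

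**Figure D3:**
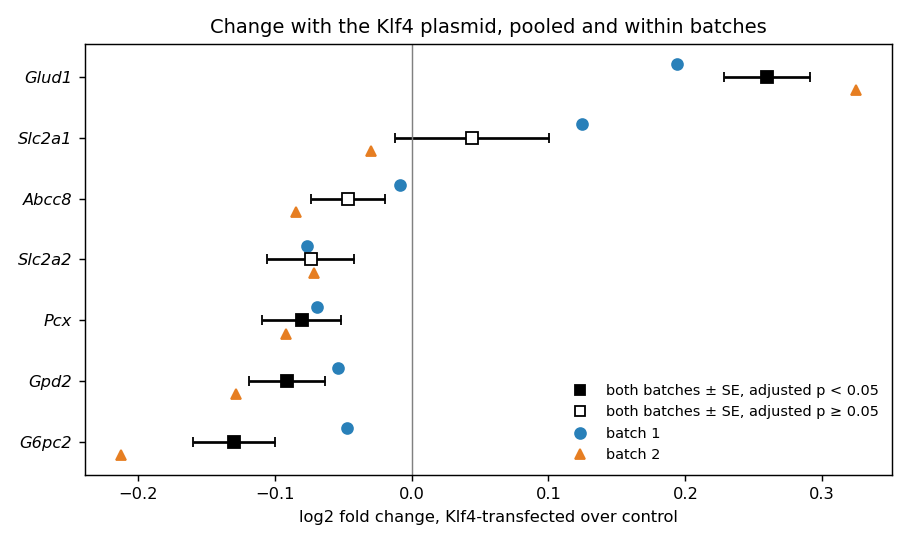
Log2 fold change of each gene, Klf4-transfected over control: squares give the value from both batches with its SE (filled where the adjusted p was under 0.05), circles batch 1 and triangles batch 2. Glud1 stands to the right at 0.26, and the batch 2 triangles lie further from 0 than the batch 1 circles for Glud1, G6pc2, Gpd2, Pcx and Abcc8.

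Differences between batches were larger in size than those of the plasmid for Slc2a1, Slc2a2, Gpd2 and Abcc8. In the same edgeR model, 5 of the 7 differed between batches, 2 higher and 3 lower in batch 2, against 25.1% of all genes, 13.4% higher and 11.6% lower. Slc2a2 was lower in batch 2, at 85.7 ± 4.17 CPM against 147.5 ± 4.78 CPM in batch 1 (SD, n = 4 libraries of both groups), a 0.581-fold level (log2 difference -0.78, SE 0.032, adjusted p = 1.1e-13 in edgeR). Slc2a1 went the other way, from 27 ± 2.46 to 33.9 ± 1.83 CPM (log2 difference 0.33, SE 0.056, adjusted p = 0.000153 in edgeR). Lower in batch 2 were also Gpd2 (-0.15, adjusted p = 0.000292 in edgeR) and Abcc8 (-0.18, adjusted p = 4.52e-05). Glud1 was higher in batch 2 (0.16, adjusted p = 0.000787). G6pc2 and Pcx differed between batches by 0.00043 and 0.011 on the log2 scale, and neither passed (adjusted p 0.994 and 0.831 in edgeR). The labels name the batches and give nothing else that distinguishes them.

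The transporter transcripts were also compared within each library, which needs no scaling between libraries. The ratio of Slc2a2 to Slc2a1, each per exonic length, was 3.37, 3.8, 1.68 and 1.45 in control libraries 1 to 4. It was 3.3, 2.94, 1.6 and 1.45 in Klf4 libraries 1 to 4. Slc2a2 was the more abundant in every library, and every library of batch 1 had a higher ratio than every library of batch 2. The plasmid groups did not overlap in batch 1, where the controls were higher, and overlapped in batch 2. The plasmid groups differed by -0.12 on the log2 scale (2-sided exact permutation p = 0.6, 0.657 after adjustment over 2 ratios), with -0.20 and -0.038 within batches 1 and 2. That permutation takes no account of batch, and no test within batches was made. Leaving out 1 library, which unbalances the batches, moved the difference from -0.35 (without control replicate 4) to 0.11 (without control replicate 2). It was positive without control replicate 1 or 2 or Klf4 replicate 3 or 4, so no direction is given. The ratio of Pcx to Pdha1, which encodes the E1α subunit of pyruvate dehydrogenase, contrasts the carboxylation and oxidation of pyruvate. The controls had a mean of 1.61 ± 0.0744 and the Klf4 libraries of 1.62 ± 0.0551 (SD, n = 4), a log2 difference of 0.015 (exact permutation p = 0.657, also after adjustment), with 0.006 and 0.024 within batches. It ranged from -0.015 (without control replicate 4) to 0.037 (without control replicate 1) and was also negative without Klf4 replicate 1, so no direction is given here either. Both genes fell slightly (Pdha1 log2 fold change -0.09, adjusted p = 0.0167 in edgeR), and Pdha1 overlaps Map3k15 on the opposite strand over 16.2% of its exonic length.

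**Figure D4:**
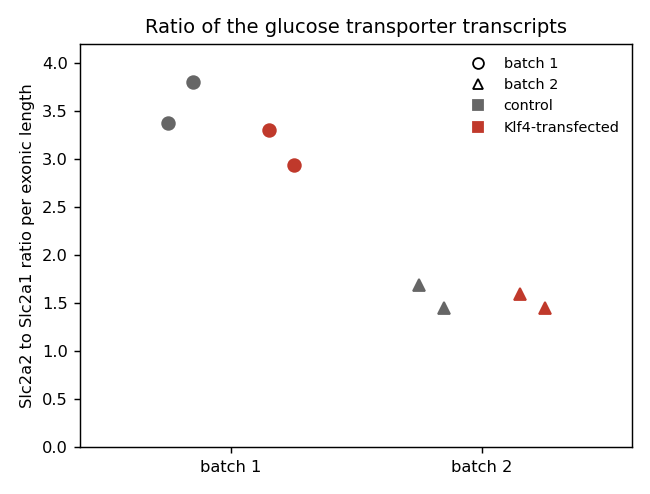
Ratio of Slc2a2 to Slc2a1 per exonic length in each library, by batch, with grey for control and red for Klf4-transfected cells. The 4 libraries of batch 1 lie between 2.94 and 3.8 and the 4 of batch 2 between 1.45 and 1.68.

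Across the 8 libraries the 7 genes fell into patterns that share batch and plasmid, so the correlations of log2 CPM are descriptions only. Slc2a2 and Abcc8 moved together (Pearson r = 0.935), and Slc2a2 and Slc2a1 moved oppositely (r = -0.874). G6pc2 correlated with Pcx (r = 0.66) and hardly with Slc2a2 (r = 0.0729). Glud1 correlated negatively with Gpd2 (r = -0.799) and G6pc2 (r = -0.756). Among 10484 other genes, kept at a mean log2 CPM of 3 or more, the gene most like Slc2a2 was Zfp185 (r = 0.994), and 396 genes had an r over 0.9. The closest to Slc2a1 was Mast1 (r = 0.993), to Abcc8 Adcy6, an adenylyl cyclase gene (r = 0.989), and to Gpd2 Prkar1a, the gene of a regulatory subunit of protein kinase A (r = 0.992). The closest to G6pc2 was Atp2a2, which encodes the SERCA2 calcium pump of the endoplasmic reticulum (r = 0.98), to Pcx Mettl22 (r = 0.974) and to Glud1 Ywhab, a 14-3-3 protein gene (r = 0.991).

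The neighbouring steps of glucose metabolism were examined through 8 lists. Without the 7 genes they held 102 genes, of which 97 were tested; 15 rose, 18 fell and 64 did not pass, so that 33 changed where 36.6% of all genes did. Their median log2 fold change was -0.03, against -0.01 over all tested genes. The lists were not tested as sets, and their counts below stand beside the share of all genes that passed. G6pc, Pdk4, Pck1, Me3 and Slc25a18 fell below the filter, with 0 to 23 counts per library. Gpd1 lost its call in 7 of 18 refits under other settings, Idh2 in 9, Mlx in 10, Mlxip in 6 and G6pc3 in 4, and Pkm gained one in 4. Without the batch term Slc2a4, Pfkp, Got1, Slc25a12, Acly, Ogdhl, Kcnj11 and Arrdc4 also lost theirs, as did Slc25a12 and Ogdhl with factors from abundant genes. Glul gained a call without Klf4 replicate 2. Genes on the opposite strand overlap 19.4% of the exonic length of Txnip, 19.3% of Mlx and 13% of Gpd1.

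Among genes of uptake and phosphorylation, 2 of 13 tested rose, 1 fell and 10 did not pass (36.6% of all genes passed). Hk2, which encodes a low-Km hexokinase that mature β-cells keep very low, had 8, 6, 2 and 8 counts in control libraries 1 to 4 and 190, 183, 276 and 289 in Klf4 libraries 1 to 4. Its level went from 0.125 ± 0.06 to 4.61 ± 0.886 CPM (mean ± SD of 4 libraries, log2 fold change 5.18, SE 0.23, adjusted p = 1.7e-14 in edgeR), and control replicate 3 held no more than 3 counts. Every control library lay below the filter's minimum count of 10, so Hk2 was tested only through its Klf4 libraries. A rise was thus fixed in advance, and the p-value adds no support. Slc2a4, the gene of the insulin-responsive transporter GLUT4, rose from 1.53 ± 0.617 to 2.47 ± 0.118 CPM (log2 fold change 0.73, SE 0.19, adjusted p = 0.00342 in edgeR), with 0.25 in batch 1 and 1.29 in batch 2, a difference that did not pass the interaction test (adjusted p = 0.119). G6pc3, the ubiquitous relative of G6pc2, fell by 0.11 on the log2 scale (adjusted p = 0.0217 in edgeR). Hk1 at 187.2 and 188.3 CPM (log2 fold change 0.0085, adjusted p = 0.853 in edgeR) did not pass and was chosen after its values were seen. Per exonic length G6pc2 was the most abundant gene of this list.

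In glycolysis 2 of 23 genes rose, 0 fell and 21 did not pass (36.6% of all genes passed). Pfkfb4, which encodes a bifunctional enzyme that sets fructose-2,6-bisphosphate, rose from 7.64 ± 0.598 to 20.6 ± 1.55 CPM (mean ± SD of 4 libraries; log2 fold change 1.43, SE 0.07, adjusted p = 1.19e-13 in edgeR). Pfkp, the platelet-type phosphofructokinase gene, rose by 0.39 (SE 0.04, adjusted p = 3.07e-07 in edgeR), from 185.5 ± 34.8 to 241.9 ± 40.2 CPM, with overlapping groups and 0.42 and 0.36 within batches. Pkm, the pyruvate kinase gene with the highest level per length of the list, had a log2 fold change of -0.06 (adjusted p = 0.145 in edgeR).

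At the entry of pyruvate into mitochondria 4 of 18 tested genes rose, 6 fell and 8 did not pass (36.6% of all genes passed). The regulators of pyruvate dehydrogenase went both ways. Pdk2, a kinase that inactivates the complex, rose from 18.1 ± 2.11 to 35.6 ± 2.54 CPM (mean ± SD of 4 libraries; log2 fold change 0.97, SE 0.05, adjusted p = 4.22e-13 in edgeR). Pdp1, a phosphatase that reactivates it, rose from 13.7 ± 0.582 to 29.2 ± 1.89 CPM (1.09, SE 0.05, adjusted p = 1.47e-13), while the related phosphatase Pdp2 fell from 16.2 ± 1.39 to 11.2 ± 0.703 CPM (-0.53, SE 0.07, adjusted p = 1.09e-06). Me1, the cytosolic malic enzyme gene of the pyruvate-malate cycle, rose from 98.7 ± 8.83 to 136.2 ± 22.1 CPM (0.46, SE 0.04, adjusted p = 1.07e-08 in edgeR). For none of these 4 genes did the groups overlap, which held for 26.1% of all tested genes. The 4 were named as the largest changes of the list that passed. Other kinase genes did not follow Pdk2. Pdk1, at 99.3 CPM in controls and 96.2 CPM with Klf4, did not pass (adjusted p = 0.59 in edgeR). Pdk3 fell by 0.18 on the log2 scale (adjusted p = 0.000837 in edgeR), and Pdk4 fell below the filter. These kinase genes were chosen after their values were seen. Acly, the ATP-citrate lyase gene and the most abundant of the list per length, fell by 0.09 (SE 0.02, adjusted p = 0.00114 in edgeR).

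**Figure D5:**
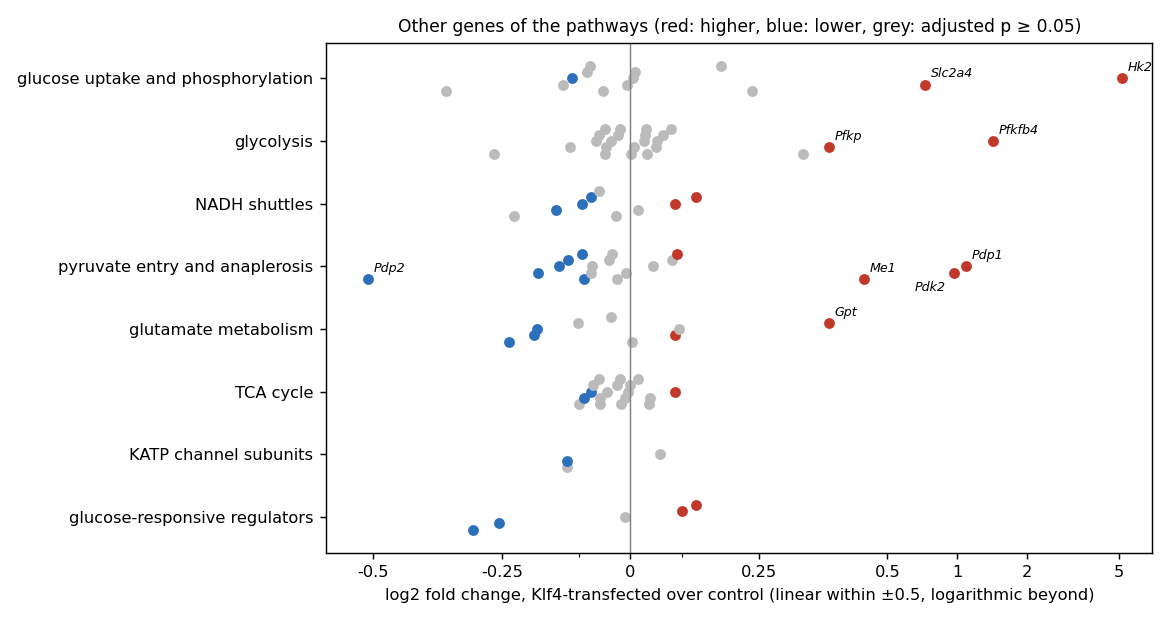
Log2 fold changes of the 97 tested genes of the 8 lists other than the 7 described singly, with an axis that is linear within ±0.5 and logarithmic beyond (red higher, blue lower, grey not passing an adjusted p of 0.05). Most points lie close to 0, and Hk2, Pfkfb4, Pdp1 and Pdk2 stand furthest to the right. Mdh2 stands in 2 of the lists.

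Around Gpd2, 2 of 9 genes of the NADH shuttles rose, 3 fell and 4 did not pass (36.6% of all genes passed). Gpd1, which encodes the cytosolic partner of Gpd2 and had the highest level per length of the list, rose by 0.086 (SE 0.027, adjusted p = 0.0143 in edgeR) with overlapping groups. With the offset for GC content and length it stood at 0.0032 (adjusted p = 0.942 in edgeR), and the call was also lost without control replicate 1, 3 or 4 or Klf4 replicate 3 or 4 (0.060 to 0.076). Gpd1l rose by 0.13 (adjusted p = 0.00658 in edgeR). Of the malate-aspartate shuttle, Got1 fell by 0.14 (adjusted p = 0.00141 in edgeR) and Slc25a12 by 0.09 (adjusted p = 0.0149). Around Glud1, 2 of 9 tested glutamate genes rose, 3 fell and 4 did not pass, beside the same 36.6% of all genes. The alanine transaminase genes moved oppositely, with Gpt at 0.39 (SE 0.06, adjusted p = 1.21e-05 in edgeR) and Gpt2 at -0.24 (SE 0.05, adjusted p = 0.00029). Hadh, whose product is known to inhibit glutamate dehydrogenase in β-cells, fell by 0.19 (SE 0.03, adjusted p = 0.000107 in edgeR), from 83.6 ± 2.71 to 73.5 ± 4.25 CPM. Its groups did not overlap, as for 26.1% of all tested genes. Aldh18a1, which draws on glutamate for proline synthesis, fell by 0.18 (adjusted p = 5.92e-05 in edgeR). Glul, the glutamine synthetase gene, had a log2 fold change of -0.04 (adjusted p = 0.338).

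In the TCA cycle 1 of 18 genes rose, 2 fell and 15 did not pass (36.6% of all genes passed). All 18 had a log2 fold change under 0.15 in size. The median size was 0.13 over all tested genes, and 0.081 among the 6836 genes with an average CPM no lower than that of Slc2a1. Idh2 rose by 0.088 (adjusted p = 0.0307 in edgeR), a call lost with the replicate block (adjusted p = 0.0552), with the offset for GC content and length (0.030, adjusted p = 0.438) and without control replicate 2 (0.042, adjusted p = 0.327). Without control replicate 1 or 4 or Klf4 replicate 1 or 2 it was lost too (0.065 to 0.084). Ogdhl, 1 of the 2 that fell, fell by 0.09 (adjusted p = 0.0147 in edgeR). Mdh2, the most abundant per length, had a log2 fold change of 0.016 (adjusted p = 0.677 in edgeR). Of the KATP channel subunits other than Abcc8, 1 of 3 fell, where 15.5% of all genes fell. It was Kcnj11, which encodes the pore-forming Kir6.2, lowered from 125.5 ± 11.5 to 115.2 ± 12.3 CPM (mean ± SD of 4 libraries; log2 fold change -0.12, SE 0.03, adjusted p = 0.00383 in edgeR), with overlapping groups and -0.11 and -0.13 within batches.

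Of 5 glucose-responsive regulators, 2 rose, 2 fell and 1 did not pass (36.6% of all genes passed). Txnip, a target of the glucose-activated factor ChREBP, fell from 258.6 ± 36.5 to 207.8 ± 4.91 CPM (mean ± SD of 4 libraries; log2 fold change -0.31, SE 0.05, adjusted p = 1.46e-05 in edgeR). Its control libraries stood at 284.4 and 295.6 CPM in batch 1 and at 227.3 and 227.1 CPM in batch 2, and all Klf4 libraries at 202.2 to 213 CPM. Batch 1 gave a log2 fold change of -0.48 and batch 2 of -0.13, which differ by the interaction test (adjusted p = 0.000314 in edgeR; 0.766% of all genes passed). Arrdc4, the Txnip relative and also a ChREBP target, fell by 0.25 (SE 0.05, adjusted p = 9.96e-05 in edgeR), with overlapping groups and -0.31 and -0.19 within batches. Mlxipl, which encodes ChREBP, had a log2 fold change of -0.0094 (adjusted p = 0.899), with 0.10 and -0.12 within batches, and its sign turned in 4 of 18 alternatives. Mlxip and Mlx, which encode its relative MondoA and their common partner, rose by 0.13 and 0.10 (adjusted p = 0.0147 and 0.029 in edgeR).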

How the data were processed

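Read counts per gene were used as the authors deposited them: whole numbers with no normalisation, each library in its own column. The name of the deposited counts gives trimming with cutadapt. Per the submitters' processing notes the tools were FastQC, STAR, featureCounts and edgeR on mm10, with no versions given. The strand setting is not given in the sources used here, so reads of overlapping genes cannot be told apart. All 55536 identifiers matched GENCODE M21 (GRCm38), which gave coordinates and exonic lengths. Aldoa had 2 identifiers, and the one with more counts was used.

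In edgeR 4.0.16 (R 4.3.3), filterByExpr with a minimum count of 10 kept 18266 genes and took out 37270. TMM factors were 0.996 to 1.01. A quasi-likelihood model of plasmid adjusted for batch took in all 8 libraries, following the series' own design text, with Benjamini-Hochberg adjustment over all tested genes. Standard errors are those implied by the F statistic. CPM are TMM-scaled, and RPKM divide them by exonic length. Effects within batches and an interaction test came from the same kind of model. Exact permutation tests used the 70 relabellings of 4 against 4.

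The members and lists were chosen with earlier results of these data known. Named were every member, Klf4, the gene most like each member, and in each list the 4 largest changes past the threshold at an average log2 CPM of at least 1 and the highest level per length. Some listed genes are not reported here by name. Deviations of same-numbered libraries from their group means correlated at 0.614, 0.459, 0.57 and 0.516 over 10485 genes. With a Klf4 library of another number, control libraries 1 to 4 reached up to 0.531, 0.574, 0.548 and 0.459, which was higher for library 2. The library numbers come from the sample titles, and libraries 1 and 2, and 3 and 4, share a batch. Chi-square per degree of freedom between libraries of a group was at least 4.23, so all were kept as separate replicates.

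Alternatives were no batch term, the replicate number as a block, DESeq2 1.42.0, limma-voom (limma 3.58.1), other filters and scalings, a stricter threshold and the omission of each library. GC content was that of the longest transcript, and 86 genes without one took the median. On simulated counts of 18266 genes for this comparison, 74% of changes of 0.2 on the log2 scale and 100% of changes of 0.5 were recovered, among 100 genes of each size. Of the simulated calls 5.43% were false. Changes as small as those of G6pc2, Gpd2 and Pcx are not among these sizes, so their recovery is not known. Near-identical copies were sought with BLAST 2.17.0 at 95% identity over at least 100 bases. Promoter windows are from RefSeq (GRCm38.p6), cut where GENCODE starts the gene, and figures were made with Python 3.11.15.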

Additional observations from a re-analysis of the deposited data

Results flagged for a closer look

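In 84 checks for a single outlying library within a group, 2 stood out. A rate of 1 in 20, or about 4.2, would hold for 4 libraries that are alike. Each group holds 2 libraries of either batch, so the number that chance gives is not known here. Glul was at 505.5 CPM in Klf4 replicate 1, while its 3 companions had 543.4 to 547.6 CPM. Klf4 replicate 2 had 45417853 total counts, below the 51891997 to 52731176 of the others. The effect of the plasmid differed between batches for 2 of 38 named genes by the edgeR interaction test. The term (batch 2 minus batch 1, log2) was 0.35 for Txnip (adjusted p = 0.000314 in edgeR), which fell more in batch 1, and 0.37 for Klf4 itself (adjusted p = 0.0057 in edgeR). Over all genes 140 passed, 1942 at an unadjusted p under 0.05, and 112 passed in DESeq2.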

How the results depend on the processing

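Glud1 (0.22 to 0.29 on the log2 scale) and G6pc2 (-0.17 to -0.08) kept their direction and call in all 18 refits. Of the 7 genes, 4 passed, and 2 passed without the batch term, with scaling factors from abundant genes (log2 CPM of 6 or more), or at an adjusted p under 0.01; leaving out 1 library gave 3 to 5. With the replicate block in place of batch 3 passed, as Pcx (-0.0800) was lost; the block changed no other call among the 7 genes and lost that of Idh2 (0.0879) among the other named genes, and over all genes it gave 6284 calls against 6684. Pcx was also lost without the batch term (-0.0803), with the filter at 1 CPM (-0.0696) and with the abundant-gene factors (-0.0456), and ranged from -0.11 to -0.0695 when 1 library was left out. Gpd2 was lost without the batch term (-0.0893) and with the abundant-gene factors (-0.0566), with -0.12 to -0.0715 when 1 library was left out. Slc2a2 passed without the 10 most abundant genes (-0.0850), with -0.11 to -0.0602 when 1 library was left out. Abcc8 passed with the GC and length offset (-0.13), with -0.0819 to -0.0374 when 1 library was left out. Slc2a1 turned to -0.0027 with that offset and ranged from -0.0184 to 0.0817 when 1 library was left out. Mlxipl turned to 0.0013 with the 1 CPM filter and 0.0253 with the abundant-gene factors, and ranged from -0.0730 to 0.0355 when 1 library was left out; Mdh2 ranged from -0.0088 to 0.0162. Of the 97 other list genes, 33 passed, 15 without the batch term and 21 at the stricter threshold. Over all genes 4116 passed without the batch term. Lower calls were 2828, against 1159 without the batch term, 1696 at the stricter threshold and 1644 with the abundant-gene factors, where 72.7% of calls were higher against 57.7%. That scaling moved the median of all genes from -0.014 to 0.020. The cause of these shifts was not tested. Leaving out 1 library moved the Slc2a2 to Slc2a1 difference from -0.35 to 0.11 and the Pcx to Pdha1 difference from -0.015 to 0.037. The lowest count among the 7 genes was 1183, for Slc2a1, and counting error was not compared with the spread between libraries.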
